A study of Homo sapiens with 33 samples.

Results

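Liver-made complement genes were examined as a set of 8, namely C3, C5, CFB, CFI, C1R, C1S, SERPING1 and MASP1, out of 78932 gene identifiers in each library, of which 19183 were protein-coding. The genes were listed by symbol because their proteins are made in the liver, and the rule uses symbols alone. The cells were HepG2, a long-established human liver cancer line that keeps many hepatocyte functions, with RNA measured in 15 libraries. Of these, 12 came from cells sorted by cell cycle into G1, then S1 to S4, and G2, with 2 libraries a fraction (replicates 2 and 3), and 3 came from bulk cells (replicates 1 to 3). No genotype, treatment or time in culture distinguishes the groups, per the labels. A total RNA kit for very small inputs served for the sorted cells and an mRNA kit for the bulk cells, both of them stranded, so sorting and library kit cannot be told apart. The labels call the molecule nuclear RNA in both kinds of library. No label says that replicates were separate cultures, so the p-values speak of the spread among libraries, and this spread may be technical. The other 18 samples of the series are Repli-seq DNA libraries and were not analysed here.

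Complement is a chain of plasma proteases and their substrates that marks microbes and damaged cells for removal. The classical and lectin pathways start it through the paired proteases C1r and C1s and through the MASPs, the alternative pathway amplifies it through factor B, and all of them cut C3 and then C5, which opens the terminal pathway that ends in a membrane pore. Factor I, which degrades the active fragments of C3 and C4, and C1 inhibitor, the product of SERPING1, restrain it. Hepatocytes make most of the circulating protein of many components, and several of these genes respond to interleukin 6, interferon and NF-kB signalling.

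Levels are given as TPM, reads divided by gene length and scaled to a sum of 1e+06 in each library. Read counts could be recovered from the steps of the values, and came to 6128917 to 18484976 per sorted library and 22340957 to 24423738 per bulk library. Replicate 3 of S4 was the deepest sorted library, and no other sorted library exceeded 9309478 reads. Protein-coding genes accounted for 11.2% to 15.5% of all TPM in a sorted library and 76.7% to 77.6% in a bulk library. TPM divides reads by gene length, so these are not shares of reads. In replicate 2 of G1, for example, 5528259 of 7539730 recovered reads were of protein-coding genes, and in replicate 1 of bulk 22800740 of 24423738. Levels are therefore also given with the protein-coding genes of each library rescaled to sum to 1e+06 (rescaled TPM), which multiplies the TPM by 6.45 to 8.95 in sorted libraries and by 1.29 to 1.30 in bulk. All 10 hepatocyte markers averaged at least 1 rescaled TPM in both kinds of library, and their summed level was 32524 to 96843 in sorted libraries and 68592 to 69175 in bulk. Of 10 leukocyte markers 7 were at 0 in every bulk library, among them PTPRC, C1QA, C1QB and C1QC. All 10 leukocyte markers summed to 1207 to 3369 rescaled TPM in sorted libraries and 2337 to 2563 in bulk. Without LYZ the 9 other leukocyte markers summed to 9.82 to 34.7 rescaled TPM in sorted libraries and 2.70 to 4.43 in bulk. Fibroblast and stellate markers summed to 27.5 to 57.5 rescaled TPM in sorted libraries and 67.1 to 69.4 in bulk, and endothelial markers to 7.76 to 28.5 in sorted libraries and 0.875 to 1.36 in bulk. In measurements of this kind, fewer cells of a type and less RNA per cell cannot be told apart. The labels name HepG2 alone, and the source of the reads of other cell types' markers was not tested.

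The promoters of 5 of the 8 genes were found in a RefSeq table of GRCh38.p14. They run from 250 bases before the start site to 50 bases after it. Those of C5, CFI and CFB are shown because C5 and CFI stood at nearly the same level and both were higher in replicate 3 in rescaled TPM, while CFB, a gene known to be induced in inflammation, had few reads. Capitals mark matches to the motif letters given below.
C5 promoter (chr9:121074816-121075115, minus strand): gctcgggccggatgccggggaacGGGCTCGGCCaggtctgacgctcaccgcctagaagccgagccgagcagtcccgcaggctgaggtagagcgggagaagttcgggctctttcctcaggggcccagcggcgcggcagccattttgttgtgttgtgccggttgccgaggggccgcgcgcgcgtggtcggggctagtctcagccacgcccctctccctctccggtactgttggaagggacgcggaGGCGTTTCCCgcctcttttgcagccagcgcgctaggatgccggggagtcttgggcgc
CFI promoter (chr4:109801950-109802249, minus strand): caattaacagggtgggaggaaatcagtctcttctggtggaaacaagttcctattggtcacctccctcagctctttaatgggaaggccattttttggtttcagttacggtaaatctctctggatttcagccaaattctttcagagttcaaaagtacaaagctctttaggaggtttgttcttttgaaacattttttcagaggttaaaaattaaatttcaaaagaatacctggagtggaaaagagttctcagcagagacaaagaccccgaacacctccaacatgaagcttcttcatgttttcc
CFB promoter (chr6:31945845-31946144, plus strand): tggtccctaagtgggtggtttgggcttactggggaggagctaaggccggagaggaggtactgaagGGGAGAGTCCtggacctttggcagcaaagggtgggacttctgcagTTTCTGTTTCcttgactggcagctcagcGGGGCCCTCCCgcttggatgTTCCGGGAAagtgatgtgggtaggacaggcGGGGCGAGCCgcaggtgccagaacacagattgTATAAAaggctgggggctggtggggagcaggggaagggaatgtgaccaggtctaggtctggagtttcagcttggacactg

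The C5 window held 33 CpG dinucleotides and the CFI window 2, against a median of 14 over 34943 RefSeq promoter windows, so the promoters of these similarly expressed genes lay on opposite sides of the median. The CFB window held 7. The protein-coding gene CNTRL lies 90 bases beyond the start end of C5, so part of the C5 window falls within CNTRL. The RefSeq table held 2 windows for C5, and the one nearest the outer end of the gene is shown. Both strands were searched for TTCNNNGAA, the letters of STAT factors, which are in 7.66% of the 34943 windows. The other motifs were TTGCNNAA for C/EBP factors (10.5%), TATAAA for the TATA box (11.6%), GGG and CC with 5 bases between them for NF-kB (58.6%), and GAAA repeated with 2 bases between for the interferon response (3.57%). The CFB window matched the STAT letters once, with the first base at -92 from the start site, the TATA letters once at -30, the interferon response letters once at -140 and the loose NF-kB letters 4 times. The matches to the NF-kB letters at -112 and -111 overlap. The C5 window matched only the NF-kB letters, 2 times, and the CFI window matched none of these motifs. Among the others, the C1R window matched the C/EBP letters at -106 and the NF-kB letters 1 time, and the MASP1 window matched none. A match describes letters and not a bound factor.

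C3, the central protein of all 3 pathways, was by far the most abundant of the 8 transcripts. In the fractions G1, S1, S2, S3, S4 and G2 it stood at 1776, 2775, 1659, 1413, 1351 and 1380 rescaled TPM in replicate 3, and at 3840, 4992, 5474, 3175, 2996 and 4192 in replicate 2. The bulk libraries held 2655, 2749 and 2801 rescaled TPM. Every library of replicate 2 lay above all bulk libraries, and of replicate 3 only S1 reached the bulk range. C3 averaged 2919 ± 1458 rescaled TPM over the sorted libraries (SD, n = 12) and 2735 ± 74.4 over the bulk libraries (SD, n = 3), which ranked 14th and 27th among the 19183 protein-coding genes. It made up 86.2% to 97.5% of the summed rescaled TPM of the 8 genes in sorted libraries and 94.3% to 94.6% in bulk. The gene lies on chromosome 19 from 6677704 to 6720650 (GRCh38.p14).

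C5, whose cleavage opens the terminal pathway, and CFI, the protease factor I, came next. The mean of C3 was 33.9-fold that of C5 in sorted libraries and 35.7-fold in bulk. C5 stood at 94.8, 119.5, 121.9, 109.8, 122.5 and 96.7 rescaled TPM from G1 to G2 in replicate 3, at 65.0, 69.1, 61.1, 60.4, 58.6 and 54.9 in replicate 2, and at 74.9, 79.2 and 75.8 in bulk. The 2 replicate numbers did not overlap for C5, and bulk fell between them. CFI stood at 95.6, 102.7, 65.4, 45.3, 70.5 and 78.5 rescaled TPM from G1 to G2 in replicate 3, at 65.2, 72.2, 43.2, 41.6, 54.4 and 67.7 in replicate 2, and at 74.6, 76.6 and 74.6 in bulk. Sorted libraries averaged 86.2 ± 27.3 rescaled TPM for C5 and 66.9 ± 19.3 for CFI (SD, n = 12), and bulk libraries 76.6 ± 2.25 and 75.3 ± 1.17 (SD, n = 3). These neighbours in the order overlapped, with C5 above CFI in 8 of 12 sorted and 3 of 3 bulk libraries. C5 lies on chromosome 9 from 120952335 to 121074865, where the long noncoding gene C5-OT1 overlaps it, and CFI on chromosome 4 from 109730982 to 109801999. The sources used here do not give whether counting used strand, so reads of C5 and of the overlapping gene may not be separable.

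The genes of the C1 protease pair differed widely from each other. C1S, the protease that cuts C4 and C2, stood at 28.6, 41.2, 26.9, 14.7, 17.9 and 16.9 rescaled TPM from G1 to G2 in replicate 3, at 18.6, 23.8, 27.4, 16.1, 12.3 and 20.5 in replicate 2, and at 10.6, 11.2 and 10.3 in bulk. All 12 sorted libraries lay above the bulk libraries. C1R, which activates C1s, was at 0 to 1.36 rescaled TPM in sorted libraries, with a mean of 0.613, and at 0 to 0.0405 in bulk. That was 41 recovered reads over the 12 sorted libraries and 2 over the 3 bulk libraries. The genes are neighbours on chromosome 12, C1S from 7060718 to 7071032 and C1R from 7080219 to 7092445, with a gap of 9187 bases. Adjacent position did not go with a like level here.

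SERPING1, which encodes C1 inhibitor, the serpin that inactivates C1r, C1s and the MASPs, was low. It stood at 6.09, 4.12, 6.26, 3.26, 3.94 and 3.99 rescaled TPM from G1 to G2 in replicate 3, at 4.96, 4.06, 3.13, 0.944, 1.43 and 1.63 in replicate 2, and at 0.0880, 0.130 and 0.128 in bulk. The sorted and bulk libraries did not overlap. CFB, the protease precursor of the alternative pathway convertase, ranged over 0.257 to 3.19 rescaled TPM in sorted libraries, with a mean of 1.71 ± 0.866 (SD, n = 12), and over 0.0443 to 0.160 in bulk. MASP1, a protease of the lectin pathway, was listed at 0 in 13 of the 15 libraries and had 0.0709 rescaled TPM in replicate 3 of S1 and 0.344 in replicate 2 of S1. SERPING1 lies on chromosome 11 from 57597685 to 57614848, CFB on chromosome 6 from 31946095 to 31952084, and MASP1 on chromosome 3 from 187217282 to 187291737. CFB has C2 at 423 bases on one side and NELFE at 3 bases on the other.

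The order by mean level was C3, C5, CFI, C1S, SERPING1, CFB, C1R and MASP1 in both sorted and bulk libraries, in deposited and in rescaled TPM. Besides C5 and CFI, neighbours whose ranges overlapped were SERPING1 with CFB and C1R with MASP1 in both kinds of library, and CFB with C1R in sorted libraries.

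**Figure D1:**
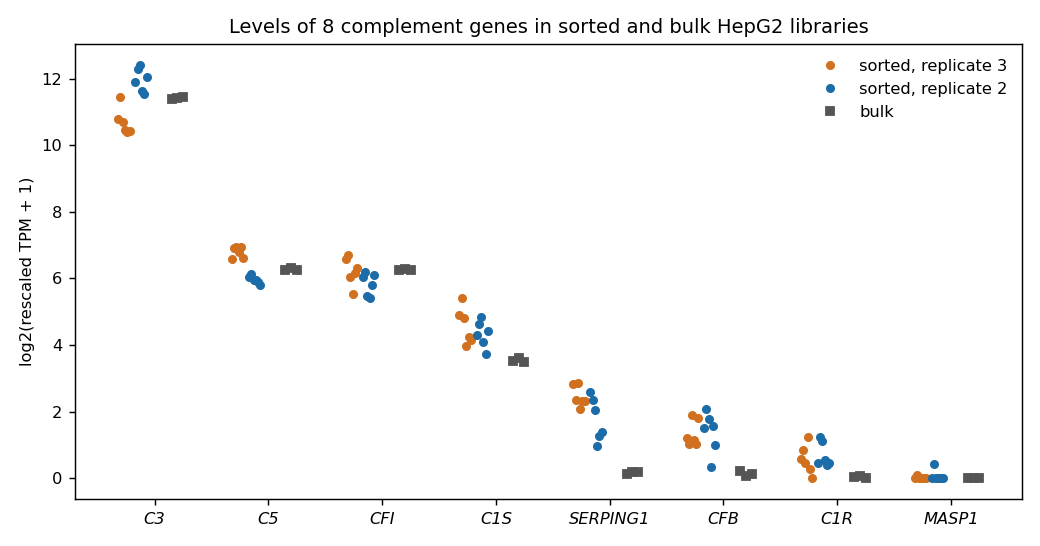
Level of each of the 8 genes, as log2(rescaled TPM + 1), in every library. Circles are the 12 sorted libraries, coloured by replicate number, and squares the 3 bulk libraries. C3 stands far above the rest, C5 and CFI share a level, and the 4 genes at the right are close to 0 in bulk.

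The next question was whether any of these genes follows the cell cycle. In the fits of log2(TPM + 1) without a replicate term, no call was made for any of the 8 in any comparison among the sorted fractions. With the replicate number as a block and protein-coding genes rescaled, the slope of C3 over S1 to S4 was called. That fit held only protein-coding genes with a mean rescaled TPM of at least 1 over the sorted libraries, 13492 in all. It called 173, 184, 40, 0 and 249 of them for the 5 comparisons in the order given next. In the limma fits of log2(TPM + 1) without the block, with Benjamini-Hochberg adjustment over 17022 genes, only C3, C5, CFI and C1S passed the filter of a mean TPM of at least 1, and the other 4 genes are given by their values alone. Calls over all genes were as rare, at 0.0176% of genes for any difference among fractions, 0% for S (the mean of S1 to S4) against G1, 0.00587% for G2 against G1, 0.00587% for G2 against S and 0% for the slope over S1 to S4. For S against G1, 891 genes had an unadjusted p under 0.05, and for the slope 500. Recovered read counts with limma's voom also gave 0 calls for both.

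CFI had its lowest values in mid to late S phase in both replicates, without a call. In rescaled TPM its S2, S3 and S4 libraries lay below its G1, S1 and G2 libraries within each replicate number. In log2(TPM + 1), S against G1 differed by -0.54 ± 0.25 (SE), beside a median of -0.20 over all genes (limma, adjusted p = 0.816). Within replicate 2 the log2 difference in rescaled TPM was -0.33 and within replicate 3 it was -0.48. G2 against S differed by 0.38 ± 0.25 in TPM, with within-replicate values in rescaled TPM of 0.39 and 0.20. These differences did not pass the adjustment.

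C1S had its highest S-phase values early, also without a call. From S1 to S4 its slope in log2(TPM + 1) was -0.27 ± 0.09 (SE) per fraction, beside an all-gene median of 0.04 (limma, adjusted p = 1). By unadjusted p it ranked 190 of 17022 genes. The slope in rescaled TPM was -0.34 within replicate 2 and -0.43 within replicate 3. Its highest library in replicate 2 was S2 and in replicate 3 was S1, and its lowest libraries were S4 and S3 in those replicates. S against G1 differed by -0.22 ± 0.24 and G2 against G1 by -0.28 ± 0.30, both with an adjusted p over 0.05.

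C3 had a slope of -0.29 ± 0.24 per fraction over S1 to S4 (limma, not called), with -0.32 within replicate 2 and -0.27 within replicate 3 in deposited TPM. With the replicate block and rescaled protein-coding genes its slope was -0.32 ± 0.06 and was called (limma, adjusted p = 0.0318), and with the block in deposited TPM it was not (-0.29 ± 0.07, adjusted p = 0.322). Its other differences were smaller than their errors, at -0.18 ± 0.60 for S against G1, -0.19 ± 0.75 for G2 against G1 and -0.00 ± 0.60 for G2 against S. C5 was close to flat, with -0.05 ± 0.41 for S against G1, -0.15 ± 0.52 for G2 against G1 and a slope of -0.01 ± 0.16. Its within-replicate values for G2 against G1 went opposite ways in deposited TPM, -0.59 in replicate 2 and 0.30 in replicate 3. These fits have no term for the replicate number, so the difference between the replicate numbers, described next, is part of these errors. Among the low genes, SERPING1 was lower in S than in G1 in both replicates, by -0.92 and -0.42 in log2(rescaled TPM + 1), and lower in G2 than in G1, by -1.18 and -0.51, without a test in the deposited scale because its mean TPM was under 1.

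**Figure D2:**
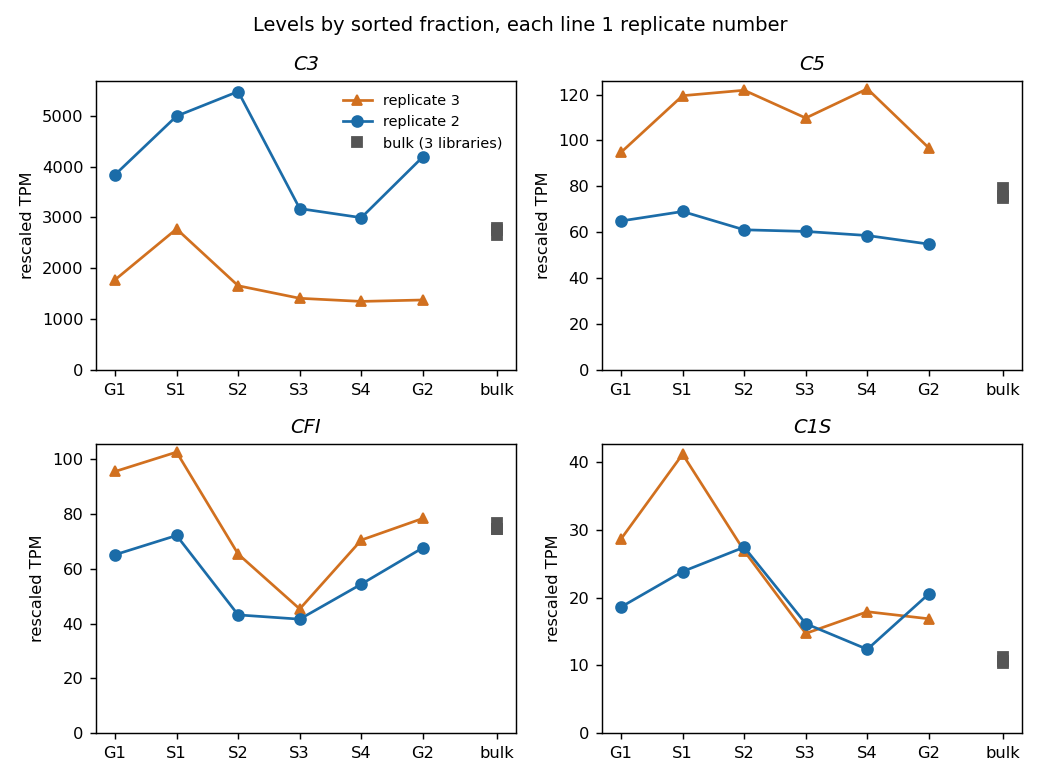
Rescaled TPM of C3, C5, CFI and C1S in the sorted fractions from G1 to G2, with 1 line per replicate number, and in bulk (squares). The replicate lines of C3 and C5 are apart over the whole cycle, whereas CFI dips at S2 to S4 in both lines and C1S is lowest at S3 or S4 within S phase.

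The sorted libraries of replicates 3 and 2 differed in opposite directions for C3 and C5. This comparison, the coefficient of the replicate number in the fit with fraction and replicate number as terms, was added after the data had been seen. Each side is 1 replicate number in 6 fractions. The errors and p-values therefore speak of evenness over the fractions and not of the spread between replicates. It called 25.0% of the 17022 genes, 18.0% higher and 6.99% lower in replicate 3, and the median log2 difference was 0.16. Of the 4 complement genes tested, 1 was higher and 1 lower. In log2(TPM + 1), C3 fell by 1.24 ± 0.13 (SE; limma, adjusted p = 0.000726) and was lower in 6 of 6 fractions, at 0.303 to 0.556 times its replicate 2 level in rescaled TPM. C5 rose by 0.79 ± 0.15 (limma, adjusted p = 0.00706) and was higher in 6 of 6 fractions, at 1.46 to 2.09 times. CFI differed by 0.37 ± 0.12 (limma, adjusted p = 0.0521) and was higher in 5 of 6 fractions in deposited and 6 of 6 in rescaled TPM, and in rescaled TPM it passed (limma, adjusted p = 0.00359; range over the alternatives 0.000284 to 0.189). C1S differed by 0.20 ± 0.15 (limma, adjusted p = 0.357) and was higher in 4 of 6 fractions. SERPING1, under the filter in deposited TPM, rose by 0.69 ± 0.25 in rescaled TPM (limma, adjusted p = 0.0426) and was higher there in 6 of 6 fractions. CFB was higher in 3 of 6, and its fit in rescaled TPM is not given here. The shares of genes called above are those in deposited TPM. The share in rescaled TPM is not given here, so the rescaled results of CFI and SERPING1 have no such share beside them.

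Other complement and liver genes moved with the replicate number as well. The counts below stand beside 18.0% higher and 6.99% lower in replicate 3 over all genes. Of 9 complement inhibitors tested, 4 were lower in replicate 3 and none was higher: VTN, or vitronectin, by -1.15 ± 0.12, CLU, or clusterin, by -0.89 ± 0.11, C4BPA, the alpha chain of C4b-binding protein, by -0.45 ± 0.12, and CPN1, a subunit of carboxypeptidase N, by -0.44 ± 0.12. In the classical and lectin list MBL2, the mannose-binding lectin, was lower by -0.57 ± 0.13 as 1 of 4 tested, and in the terminal list C8A, the alpha chain of C8, by -0.74 ± 0.13 as 1 of 3 tested. Of the 10 hepatocyte markers 9 were lower in replicate 3, with a median log2 difference of -0.78 over the list. Of 10 acute phase genes tested, 3 were higher and 3 lower. HAMP, or hepcidin, rose by 3.13 ± 0.18, HP by 0.83 ± 0.13 and SAA4 by 1.45 ± 0.24, while ITIH3 fell by 2.18 ± 0.12, FGA by 0.66 ± 0.09 and FGB by 0.35 ± 0.10. Of 14 signalling genes tested, 6 were higher, among them CEBPA, IL6ST, IRF1, NFKBIA and STAT3, by 0.46 to 0.80, and CEBPB, a C/EBP factor of the acute phase, was lower by -1.02 ± 0.17. The part of the hepatocyte markers' difference in those of C3 and C5 was not tested.

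**Figure D3:**
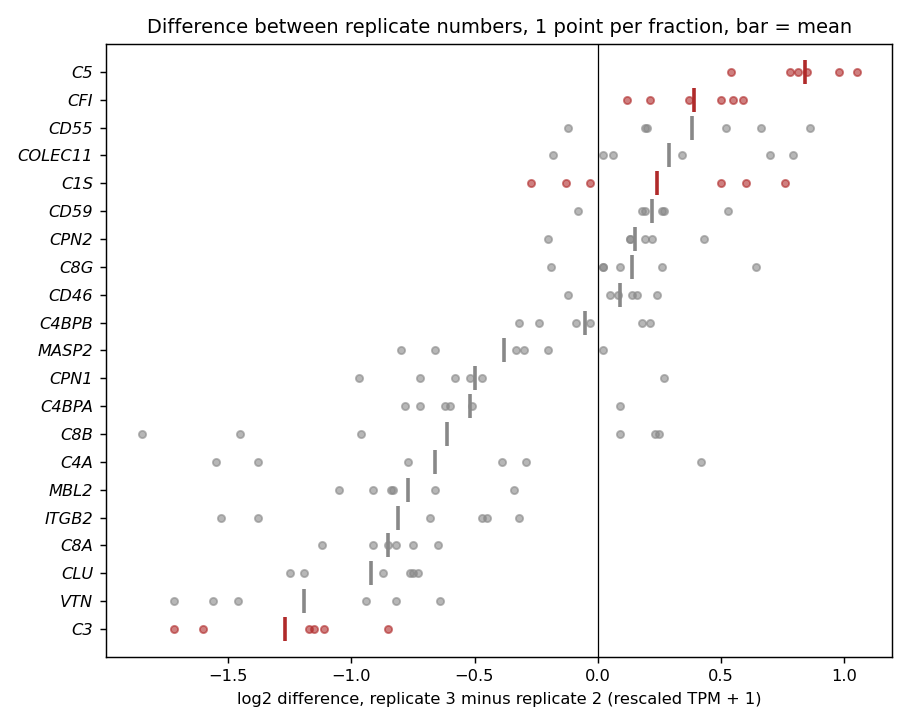
Log2 difference in rescaled TPM + 1 between sorted libraries of replicates 3 and 2 for the complement genes tested, with 1 point per fraction and a bar at the mean of the 6 fractions. C5 and C3 are at opposite ends, and all 6 points of each lie on its own side of 0.

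Comparing sorted fractions with bulk asked which transcripts differ between the joint sorting method and a standard library. These fits take the sorted libraries as independent, although libraries of different fractions share replicate numbers. In deposited TPM all 4 complement genes tested were lower in sorted libraries, where 57.8% of 17174 genes were lower, 23.1% higher and 80.9% called in either direction, and where the median log2 difference of all genes was -0.99. C3 averaged 370 ± 188 TPM over the 12 sorted libraries and 2110 ± 51.1 TPM over the 3 bulk libraries (each with its SD), a log2 difference of -2.68 ± 0.44 (SE; limma, adjusted p = 0.00014). C5 had 11.0 ± 3.66 TPM in sorted libraries and 59.1 ± 1.42 in bulk (-2.39 ± 0.30, adjusted p = 1.3e-05). CFI had 8.54 ± 2.57 TPM in sorted libraries and 58.1 ± 0.624 in bulk (-2.68 ± 0.17, adjusted p = 3.51e-08). C1S had 2.80 ± 0.912 TPM in sorted libraries and 8.25 ± 0.344 in bulk (-1.32 ± 0.16, adjusted p = 1.01e-05), the value nearest to the median of all genes.

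After the rescaling of protein-coding genes, C3, C5 and CFI no longer differed past the threshold, and C1S was higher in sorted libraries. In this fit 71.6% of 13041 genes were called, 55.1% higher and 16.5% lower, and the median log2 difference of all genes was 0.79. C3 differed by -0.08 ± 0.44 (limma, adjusted p = 0.879), C5 by 0.10 ± 0.29 (adjusted p = 0.764) and CFI by -0.22 ± 0.16 (adjusted p = 0.235), all below that median. C1S averaged 22.1 ± 8.01 rescaled TPM over the sorted libraries and 10.7 ± 0.486 over the bulk libraries, a log2 difference of 0.91 ± 0.19 (limma, adjusted p = 0.00111), close to the median of all genes. Its direction flips with the scaling, being -1.32 in deposited TPM, -0.15 in deposited TPM after median-ratio scaling and 0.20 in rescaled TPM after it, where it did not pass. Median-ratio scaling of the rescaled values also put C5 at -0.64 and CFI at -0.97, both past the threshold, and with array weights CFI passed at -0.22. In recovered read counts with voom, CFI was lower by -0.50, past the threshold, and C1S was higher by 0.70.

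SERPING1 and CFB entered the fit only after rescaling. SERPING1 averaged 3.65 ± 1.70 rescaled TPM in sorted libraries and 0.115 ± 0.0238 in bulk, a log2 difference of 1.96 ± 0.32 (SE). For CFB the log2 difference was 1.23 ± 0.30. With a pseudocount of 0.1 these log2 differences were 3.95 and 3.04. With C1S, 3 of the 6 genes in the fit were higher and 0 lower, but SERPING1 and CFB passed the filter through the sorted libraries alone. This count and the differences of SERPING1 and CFB are therefore descriptions, given without a p-value. Per recovered protein-coding read, SERPING1 had 337 reads in sorted libraries and 11 in bulk, a ratio of 26.6 (exact 95% interval 14.7 to 53.9), CFB had 110 in sorted libraries and 7 in bulk (13.7, 6.41 to 34.8) and C1R had 41 in sorted libraries and 2 in bulk (17.8, 4.63 to 152). The intervals cover counting error only. For scale, the 7756 protein-coding genes under 0.5 rescaled TPM in bulk had a median sorted level of 0.562 rescaled TPM, with quartiles of 0.227 and 1.12 and a 90th percentile of 2.33. SERPING1 stood above 94.3% of these genes in its sorted level, CFB above 85.2%, C1R above 53.5% and MASP1 above 12.2%. Summed markers of endothelium, and of leukocytes without LYZ, were also higher in sorted libraries, as given above. The leukocyte sum with LYZ overlapped bulk, and the fibroblast and stellate sum was lower. The part of these markers in the differences of SERPING1, CFB and C1R was not tested.

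**Figure D4:**
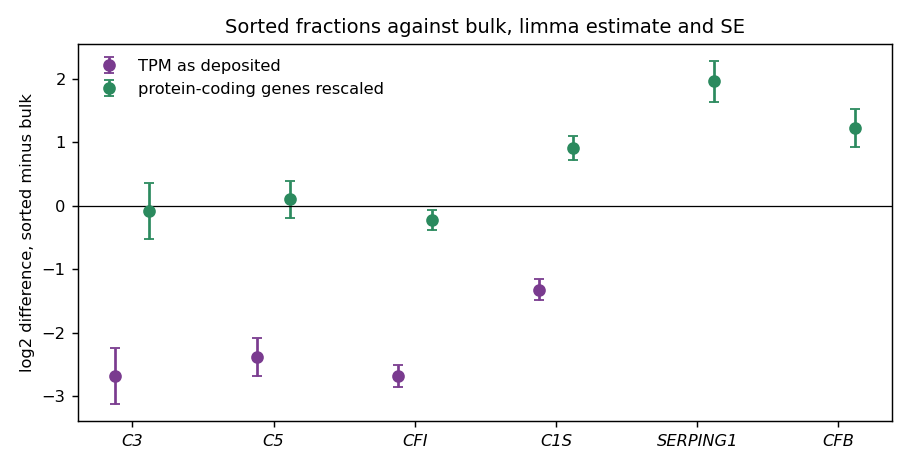
Log2 difference of sorted minus bulk libraries (limma estimate, bars 1 SE) for the genes tested, in TPM as deposited and with protein-coding genes rescaled. C3, C5, CFI and C1S lie below 0 in deposited TPM, and after rescaling C3, C5 and CFI lie near 0 and C1S, SERPING1 and CFB above it.

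The rest of the cascade was set beside the 8 genes in the same rescaled comparison. In the classical and lectin list, 6 of 13 genes were tested, of which 4 were higher in sorted libraries and none lower, beside 55.1% higher and 16.5% lower over all genes. C4B and FCN2, both among the 4, averaged under 1 rescaled TPM in bulk and passed the filter through the sorted libraries alone, so this count is a description and those genes are given by their values. C4A, which encodes the C4 that C1s cuts, averaged 33.8 ± 19.1 rescaled TPM in sorted libraries and 2.26 ± 0.287 in bulk and rose by 3.25 ± 0.33 (limma, adjusted p = 3.83e-06). C4A and C4B are near-identical copies, so the division of reads between them is uncertain, and C4B averaged 3.41 rescaled TPM in sorted libraries and 0.188 in bulk. COLEC11, a collectin that recognises sugars, averaged 20.6 ± 6.24 rescaled TPM in sorted libraries and 6.10 ± 0.425 in bulk. FCN2, or ficolin-2, averaged 1.41 ± 1.17 in sorted libraries and was at 0 in bulk. MASP2, the lectin pathway protease that cuts C4 and C2, stood at 25.8 ± 6.76 rescaled TPM in sorted libraries and 30.5 ± 2.03 in bulk and did not pass. MASP2 was thus well above MASP1 in these cells, with no overlap in any library. MBL2 did not pass either, at 20.6 ± 6.46 in sorted libraries and 17.0 ± 0.646 in bulk.

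In the terminal pathway list 5 of 6 genes were tested and 4 were higher, beside 55.1% higher over all genes. C7, one of the 4, passed the filter through the sorted libraries alone, so this count too is a description. In log2(rescaled TPM + 1), which shrinks the differences of low genes, C8A had the largest difference of the named genes. It stood at 62.5 ± 20.1 rescaled TPM in sorted libraries and 3.97 ± 0.358 in bulk (3.61 ± 0.30, limma, adjusted p = 6.82e-07). C8G, the gamma chain of C8, stood at 56.5 ± 19.3 in sorted libraries and 26.5 ± 5.69 in bulk, and C8B, the beta chain, at 12.6 ± 5.62 in sorted libraries and 3.34 ± 0.928 in bulk. C7 stood at 2.18 ± 1.05 in sorted libraries and 0.0462 ± 0.0400 in bulk, and C6 (0.65 ± 0.29, adjusted p = 0.0637) did not pass. None of the 8 genes in the other alternative pathway list reached the filter.

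Of the 9 other inhibitors, all of them tested, 3 were lower in sorted libraries, 1 was higher and 5 did not pass. Over all genes 16.5% were lower and 55.1% higher. The median log2 difference of the inhibitors was -0.04 beside 0.79 over all genes. C4BPA stood at 58.8 ± 16.7 rescaled TPM in sorted libraries and 318 ± 8.92 in bulk and fell by 2.47 ± 0.21 (limma, adjusted p = 9.36e-07). C4BPB, the beta chain of the same plasma inhibitor, fell by 0.61 ± 0.10 and CPN2, the other subunit of carboxypeptidase N, by 0.58 ± 0.11. CD46, the membrane cofactor for factor I, rose by 0.70 ± 0.09 (adjusted p = 3.43e-05). CLU, at 472 ± 179 rescaled TPM in sorted libraries and 439 ± 13.6 in bulk, and VTN, at 467 ± 217 in sorted libraries and 288 ± 1.32 in bulk, did not pass. Of 9 receptor genes 2 were tested. ITGB2, the beta chain of complement receptors 3 and 4, fell by 2.38 ± 0.33 (adjusted p = 4.73e-05), while C5AR1, the C5a receptor, did not pass (-0.42 ± 0.46).

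Of 11 acute phase genes tested 5 were higher and none lower, beside 55.1% higher and 16.5% lower over all genes. LBP and SAA4, both among the 5, passed the filter through the sorted libraries alone, so this count is a description. HP, or haptoglobin, stood at 91.2 ± 35.5 rescaled TPM in sorted libraries and 20.1 ± 0.752 in bulk, SERPINA3, a protease inhibitor, at 24.8 to 71.7 in sorted libraries and 8.76 to 12.7 in bulk, and FGB, a fibrinogen chain, at 900 ± 210 in sorted libraries and 402 ± 4.47 in bulk. SAA4, at 20.5 ± 14.9 in sorted libraries and 0.484 ± 0.228 in bulk, and LBP, at 1.45 ± 1.29 in sorted libraries and 0 in bulk, were the other genes counted. FGA (0.57 ± 0.26), FGG (0.25 ± 0.14), ORM1 (-0.06 ± 0.27) and ORM2 (0.30 ± 0.18) did not pass, and ORM1 and ORM2 are near-identical copies. Of 15 genes that signal to complement genes, 7 were higher and 2 lower, with a median of 0.56 beside 0.79 over all genes. The same shares of all genes, 55.1% higher and 16.5% lower, stand beside this count. NFKBIA, the NF-kB inhibitor, rose by 2.24 ± 0.29, IRF1 by 1.36 ± 0.27, HNF4A by 0.72 ± 0.17, STAT3 by 0.70 ± 0.19 and CEBPD by 0.65 ± 0.20. IL6R, the interleukin 6 receptor, fell by 1.46 ± 0.16 and JAK1 by 0.30 ± 0.11. CEBPA did not pass (-0.43 ± 0.27).

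**Figure D5:**
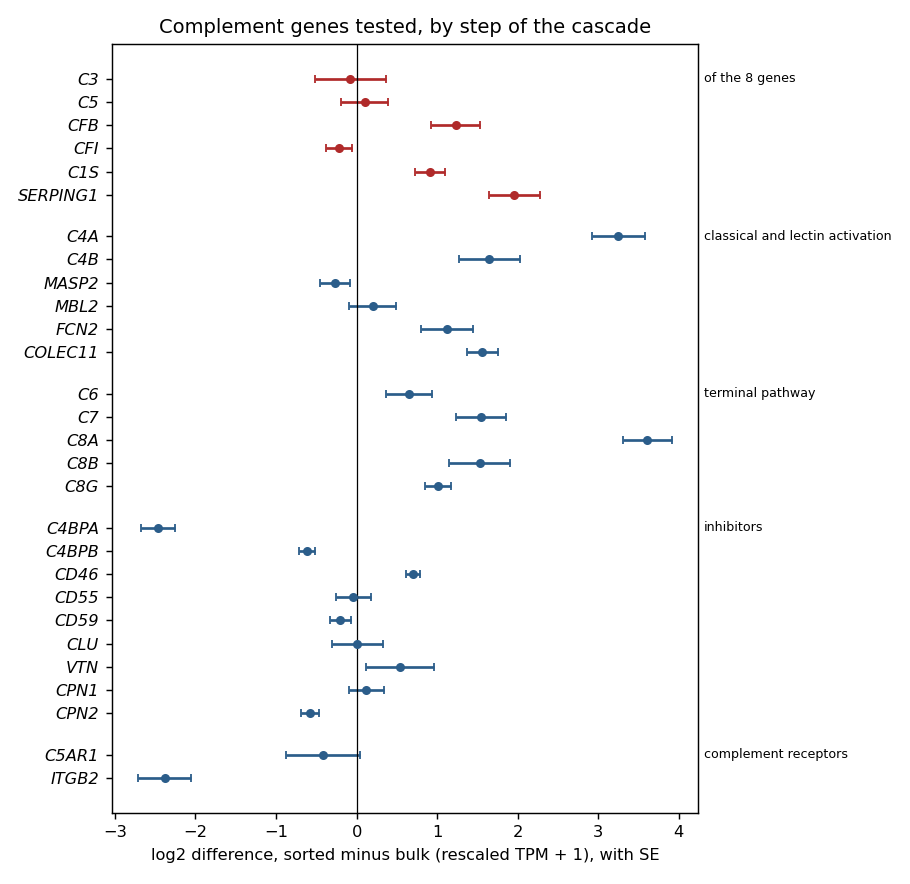
Log2 difference of sorted minus bulk libraries in rescaled TPM + 1 (limma estimate, bars 1 SE) for the complement genes tested, grouped by step, with the genes of the set of 8 in red. C4A and C8A are the farthest to the right and C4BPA and ITGB2 the farthest to the left.

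Across the 12 sorted libraries, the protein-coding gene most like each member was sought among 13492 genes by Pearson's r of log2(rescaled TPM + 1). For C3 it was SEZ6L2 (r = 0.994), for C5 LPIN1 (0.982), for CFI DPY19L1 (0.977), for SERPING1 ATG10 (0.943), for C1S LAMB1 (0.907) and for CFB CYFIP1 (0.837). These are the highest of many values and share the libraries and the difference between replicate numbers, so they are descriptions. Within the 6 libraries of replicates 3 and 2, r was 1 and 0.97 for C3, 0.87 and 0.8 for C5, 0.99 and 0.96 for CFI, 0.77 and 0.97 for SERPING1, 0.93 and 0.92 for C1S, and 0.61 and 0.94 for CFB.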

How the data were processed

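RNA was measured in 12 sorted and 3 bulk HepG2 libraries. The deposited files hold log2 values, 1 per gene and library; 2 to the value, less 1, summed to 1e+06 in every library, as TPM does, so they were read as log2(TPM + 1). The tests had been planned for TPM and were kept. Per the submitters' processing notes, hg38, HISAT2, BWA, SAMtools, Trimmomatic and cutadapt were used, in roles not stated; the sources used here do not give the counting program. Symbols, biotypes and positions came from tables of gene names and RefSeq genes. Differences were fitted with limma 3.58.1 in R 4.3.3, with an intensity trend, on log2(TPM + 1) where the mean TPM reached 1, with no replicate term, and p-values adjusted by Benjamini-Hochberg over all genes tested (0.05); they understate the change of low genes. Tables used Python 3.11.15. Read counts were recovered from the steps of the values for 50310 genes and used with limma's voom as an alternative and for counting error; MASP1 is above 0 in only 2 libraries and has none. Scripts were checked on simulated data. No replicates agreed within sampling noise (chi-square per degree of freedom at least 2.85). The 8 genes and all lists were chosen with earlier results of these data known. All 8 were named, and of each list the 4 genes with the highest mean rescaled level and those called, except some genes that are not reported here. Other settings changed the pseudocount, filter, scaling, trend, weights, replicate term and libraries.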

Additional observations from a re-analysis of the deposited data

How the results depend on the processing

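The counts of genes called among the sorted fractions were small without a replicate term and moved with the settings. For any difference among fractions the count of 3 came to 0 with a mean TPM of at least 5, with protein-coding genes rescaled or in recovered read counts. For S against G1 the count of 0 came to 4 with a pseudocount of 0.1, 3 without a filter, 2 after median-ratio scaling and 1 without the trend. For G2 against G1 the count of 1 came to 0 without a filter, with a mean TPM of at least 5, after rescaling, with array weights or in recovered read counts. For G2 against S the count of 1 came to 2 with a pseudocount of 0.1 or median-ratio scaling, 28 without a filter, and 0 with a mean TPM of at least 5, rescaling, array weights or recovered read counts. For the slope the count of 0 came to 1 with a pseudocount of 0.1. Without any 1 library the counts ran from 0 to 2 for any difference, S against G1, G2 against G1 and G2 against S. The difference between replicate numbers called 1907 genes without a filter, 7802 in recovered read counts, and 2449 to 4255 without any 1 library. Sorted against bulk called 8947 genes where the mean TPM had to reach 5. A fit without 1 library of a fraction assumes that the lone library varies like the rest. The causes were not tested.

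The groups share replicate numbers 2 and 3, and no label ties a number to a culture or day. Deviations of same-numbered libraries correlated by 0.31 to 0.38 over the 15 pairs of fractions, but any comparison has only 2 such pairs. With the replicate block the counts were 3, 0, 1, 1 and 0 for the comparisons in the order above, and 13619 for sorted against bulk. With the replicate block and rescaled protein-coding genes they were 173, 184, 40, 0 and 249, out of 13492 protein-coding genes that passed the filter. In that fit the slope of C3 was -0.32 ± 0.06 (limma, adjusted p = 0.0318). It was the only call of C3, C5, CFI or C1S for S against G1, G2 against G1, G2 against S or the slope in any fit with all libraries. SERPING1 and CFB also passed the filter in rescaled TPM, and their fits among the fractions are not given here. For any difference among fractions, and for the other complement lists, single genes were looked up only in the fit of log2(TPM + 1) without the block.

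Directions that turned were small or followed the scaling. S against G1 came to 0.01 for C3 and 0.13 for C5 after rescaling, with or without the replicate block, to 0.03 and 0.14 after median-ratio scaling, and to 0.09 for C5 in recovered read counts. Sorted against bulk in deposited TPM turned to 0.10 for C5 and 0.91 for C1S after rescaling, to 0.09 and 0.90 with the block besides, and to 0.31 for C1S in recovered read counts. After rescaling, C5 came to -0.64 with median-ratio scaling and -0.17 in recovered read counts. Without any 1 library, S against G1 ran from -0.88 to 0.52 for C3 and -0.21 to 0.10 for C5, G2 against G1 from -0.89 to 0.52 for C3, -0.71 to 0.41 for C5 and -0.45 to 0.12 for CFI, G2 against S from -0.59 to 0.59 for C3, -0.65 to 0.46 for C5 and -0.13 to 0.01 for C1S, the slope of C5 from -0.19 to 0.17, and C3 in sorted against bulk after rescaling from -0.22 to 0.06. CFI between replicate numbers ran from 0.33 to 0.46 and passed without replicate 2 or 3 of S3. Depth limits C1R, CFB, SERPING1 and MASP1, which rest on few reads.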
